A study of Mus musculus with 12 samples.

Results

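Primary mouse hepatocytes with both REV-ERB receptors intact were exposed to the compound SR9009 or to its solvent DMSO, and transcript levels were compared across all measured genes. The comparison takes 6 of the 12 libraries of the series, 3 labelled control SR9009 and 3 labelled control DMSO. It covers 11213 of the 37991 genes in the deposited table, those with at least 1 FPKM (a read count scaled by transcript length and sequencing depth) in at least 3 of the 12 libraries. The hepatocytes came from male mice, 10 weeks old, in which Nr1d1 (REV-ERBα) and Nr1d2 (REV-ERBβ) were both flanked by loxP sites. The mice had been injected 2 weeks earlier with AAV8 virus. In control mice the virus carried GFP under TBG, a promoter active in hepatocytes, so control cells hold the floxed alleles, the virus and GFP but no Cre. In mice labelled KO the same promoter drove Cre with GFP, and no group holds Cre without loxP sites. The liver cells were freed with collagenase, plated on collagen and kept for 8 h in 10 µM SR9009 or in DMSO. The labels spell the treatment S9009 and the protocol SR9009. They give no strain. Nor do they tell whether replicates come from different mice or from different plates of 1 mouse, so the p-values here rest on a spread among libraries that may be technical only.

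The REV-ERB receptors bind heme and, as members of the nuclear receptor family, recruit a corepressor complex to the genes they occupy. In liver they repress activators of the circadian clock, such as Arntl and Npas2, and genes of lipid, bile acid and glucose metabolism. SR9009 is a synthetic compound sold as an agonist of both receptors, so that a response through them would appear as lower levels of the genes they repress. The series title speaks of REV-ERB independent actions of the compound, and the comparison in control cells shows the whole response of cells that hold the receptors.

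Each of the 6 control libraries reached 1 FPKM in 10611 to 10739 genes, and transcripts of the mitochondrial chromosome took 6.62% to 8.19% of the summed FPKM. Read totals were not used here. Relative depth, read from the smallest steps of the values and set at 100% for control DMSO library 1, was 55.5% in control SR9009 library 1 and 76.8% to 87.5% in the other control libraries. Log2 values of libraries of 1 group correlated across genes with r of at least 0.982. In all that follows, levels are FPKM, errors are SDs over n = 3 libraries, per-library values run from library 1 to library 3, and a fold is the ratio of group means. A log2 change is SR9009 minus DMSO on the log2(FPKM + 1) scale, so folds of weakly expressed genes come out too small on it. Adjusted p-values come from limma with Benjamini-Hochberg adjustment over the 11213 genes. "Rose" and "fell" are used for genes with an adjusted p under 0.05.

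The levels of the receptor genes were examined first. Nr1d1 (mm9 chromosome 11, 98629246 to 98636647) stood at 18.3, 18.3 and 19.0 in the DMSO libraries and at 20.1, 19.0 and 19.4 in the SR9009 libraries. These groups overlapped, and the exact permutation test gave p = 0.2 (two-sided, smallest possible 0.1; limma adjusted p = 0.547). Nr1d2 (chromosome 14, 19036568 to 19071641) had means of 15.3 ± 1.87 and 15.3 ± 1.67 (exact permutation p = 1). Whole gene models were measured, so these levels do not check which alleles are intact. The labelled cell type was checked against its markers. The summed level of 9 hepatocyte markers was 41650 to 42880 FPKM in DMSO and 37730 to 40130 in SR9009, while 12 Kupffer cell markers summed to 55.4 to 69.2 and 57.3 to 62.2. Endothelial markers summed to at most 8.76, stellate markers to at most 2.71, lymphocyte markers to at most 0.516 and neutrophil markers to at most 0.404 FPKM in any control library. Cholangiocyte markers summed to 44.4 to 46.9 and 41.2 to 63.9, and erythroid markers to 39.2 to 41.6 and 38.7 to 48.9. Of the 22 tested markers of these other cell types none passed the limma threshold (1 had an unadjusted p under 0.05), and of the 9 hepatocyte markers 3 fell, Alb, Cps1 and Ahsg, with log2 changes of -0.15, -0.54 and -0.21. Of these, Ahsg lost its call without control DMSO library 1 (adjusted p = 0.091) or 2 (0.104) or control SR9009 library 1 (0.0683) or 2 (0.0695), and Alb without those libraries or control DMSO library 3, so that without 1 of these libraries as few as 1 of the 3 passed. In bulk samples fewer cells of a type and less RNA per cell cannot be told apart.

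SR9009 changed the levels of 924 of the 11213 genes (8.24%), 414 higher (3.69%) and 510 lower (4.55%). Most changes were of modest size. The median was 0.46 among the genes that rose and -0.44 among those that fell, and the median over all tested genes was -0.02. A log2 change of at least 1 was reached by 28 genes that rose and 14 that fell. An unadjusted p under 0.05 was found for 2426 genes. The SR9009 and DMSO libraries did not overlap for 2805 genes (25%), among them 921 of the 924 called. The share called grew with the level, from 4.80% of the 3915 genes with a mean below 5 FPKM to 13.7% of the 715 genes at 100 FPKM or more, while the median standard error fell from 0.14 to 0.07. The total depended on the control libraries: it was 532, 545 and 530 without control DMSO library 1, 2 or 3, and 609 without the 2 shallowest libraries. Without control SR9009 library 1 the number that rose was 272. With the 6 control libraries alone the total was 376.

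**Figure D1:**
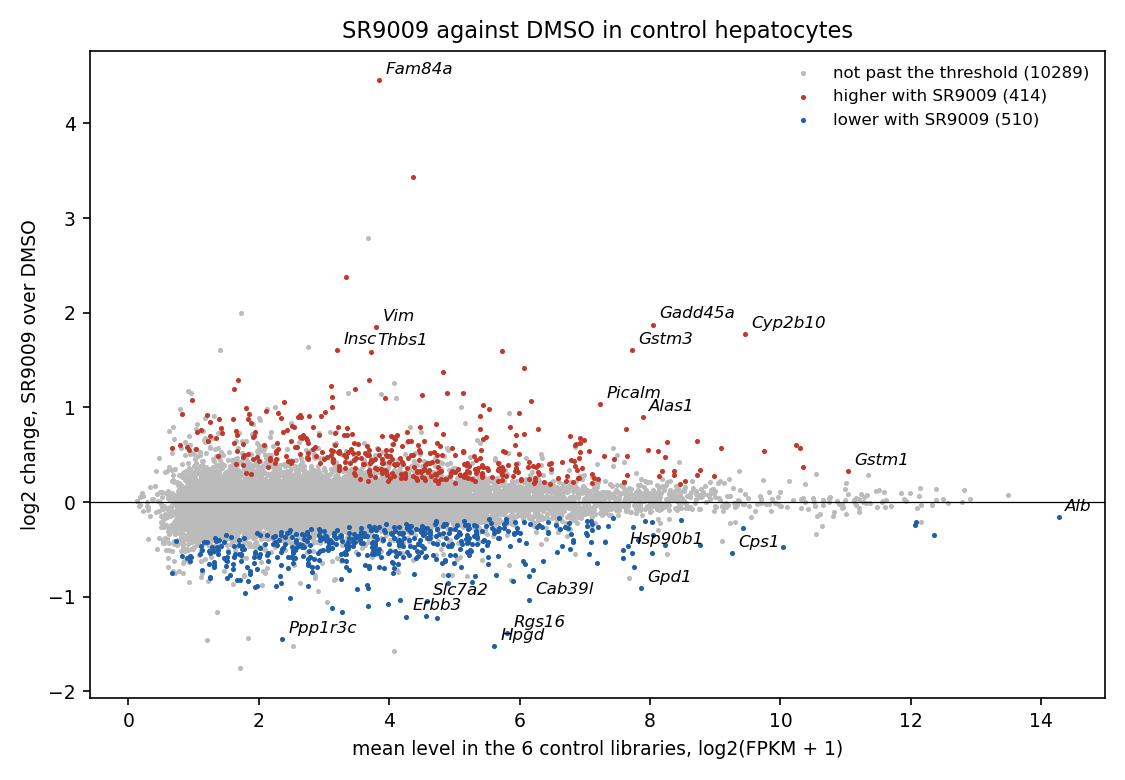
Log2 change with SR9009 in control hepatocytes (vertical axis) against the mean level of each gene in the 6 control libraries, as log2(FPKM + 1) (horizontal axis). Red points are the 414 genes that rose, blue points the 510 that fell and grey points the genes not past the threshold; Fam84a stands alone at the top, and most coloured points lie within 1 unit of 0.

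The genes that rose most included a matricellular protein, transporters, an ion channel and regulators of transcription. The largest change was that of Fam84a, which was nearly silent in DMSO (0.193, 0.212 and 0.317 FPKM) and stood at 33.5, 23.5 and 22.8 with SR9009. Next came an unnamed gene model, B430219N15Rik (chromosome 10, 7500066 to 7501155), singled out after its values were seen. It rose 14.7-fold, from 2.49 ± 0.504 to 36.6 ± 2.50 (log2 change 3.44, adjusted p = 4.11e-08). No function is known for this model from the sources used here.

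Thbs1 (thrombospondin, chromosome 2, 117937612 to 117952869), a secreted matrix protein that activates latent TGFβ, stood at 5.53, 5.12 and 5.98 in DMSO and at 20.6, 21.9 and 14.5 with SR9009. The groups lay far apart, with a 3.42-fold rise (log2 change 1.59, SE 0.15, adjusted p = 8.93e-05). Kcnk5, a background potassium channel, rose from 4.96, 3.92 and 4.62 to 11.2, 11.5 and 9.96 (log2 change 1.11, adjusted p = 3.02e-05). Vps37b, a subunit of the ESCRT machinery that sorts cargo into multivesicular bodies, rose from 16.9, 17.6 and 18.0 to 41.5, 37.7 and 40.7 (log2 change 1.15, adjusted p = 3.09e-05). In each of these genes every SR9009 library exceeded every DMSO library by more than the spread within either group. Groups that do not overlap were a condition for naming them, so the separation itself adds no support. Pla2g12a, a secreted phospholipase, rose 2.27-fold to 30.0 ± 1.13 and Slc25a37 (mitoferrin), which carries iron into mitochondria, rose 2.28-fold to 19.9 ± 2.35. Picalm, a clathrin assembly protein, rose from 97.3, 93.5 and 103 to 215, 214 and 176 (log2 change 1.03, adjusted p = 1.18e-05). Akr1b7, an aldo-keto reductase, Akirin1, a nuclear cofactor of transcription, and Cdk18, a cyclin-dependent kinase, rose 2.68-fold, 2.08-fold and 1.94-fold.

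Some of the genes that rose act on hormones or metabolites. Dio3, the deiodinase that inactivates thyroid hormone, rose from 4.04, 4.27 and 4.74 to 10.8, 7.85 and 8.75 (log2 change 0.91, adjusted p = 0.0017). Slc13a5, which brings citrate into the hepatocyte, rose 2.02-fold, from 30.2 ± 2.82 to 60.8 ± 8.20 (adjusted p = 0.00192). Procr, the receptor of protein C, rose 2.53-fold to 6.11 ± 0.638. A pair of closely related regulators moved apart. Id3, an inhibitor of basic helix-loop-helix transcription factors, rose from 49.8, 44.1 and 42.8 to 103, 85.9 and 102 (log2 change 1.07, adjusted p = 0.000223), while its relative Id2 fell from 35.8, 36.8 and 40.3 to 19.0, 20.6 and 21.5 (log2 change -0.85, adjusted p = 7.21e-05). Mid1ip1, which promotes the assembly of acetyl-CoA carboxylase, had uneven DMSO values (28.6, 27.7 and 54.3) against 98.0, 92.0 and 97.1 with SR9009. Its call (log2 change 1.42, adjusted p = 0.0387) was lost without control DMSO library 1 or 2 or any single control SR9009 library, where the adjusted p ranged from 0.0702 to 0.133, and without KO-labelled DMSO library 2 (0.052).

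The genes that fell most included enzymes, transporters and regulators of fasting metabolism. Slc7a2 (chromosome 8, 41947750 to 42007662), which carries arginine and lysine across the plasma membrane, stood at 32.2, 31.0 and 29.9 in DMSO and at 14.6, 16 and 13.2 with SR9009. The fall was 2.13-fold (log2 change -1.04, SE 0.10, adjusted p = 6.05e-05). Cab39l, a scaffold of the kinase LKB1 complex, fell from 91.4, 93.0 and 99.1 to 43.6, 48.9 and 44.7 (log2 change -1.03, adjusted p = 5.79e-05). Its neighbour on the opposite strand, Setdb2, a SET domain protein, fell by a similar factor, from 23.0 ± 3.41 to 10.8 ± 1.95 (log2 change -1.03, adjusted p = 0.00199). The models lie on chromosome 14 at 60059818 to 60167740 and 60020846 to 60059721 and do not overlap. Gpd1, which turns dihydroxyacetone phosphate into glycerol phosphate, fell from 300.3, 323 and 285 to 153, 157 and 173 (log2 change -0.91, adjusted p = 5.24e-06).

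Klf15, a transcription factor that promotes amino acid catabolism, stood at 11.4, 16 and 14.4 in DMSO and at 6.58, 7.07 and 6.85 with SR9009 (log2 change -0.92, adjusted p = 0.00191). Fkbp5, a co-chaperone of steroid receptors, fell from 74.6, 78.2 and 72.9 to 39.9, 45.3 and 40.5 (log2 change -0.83, adjusted p = 7.06e-05). Fgf21, a liver hormone of fasting and nutrient stress, fell from 9.01, 6.32 and 7.90 to 3.46, 3.15 and 4.56 (log2 change -0.89, adjusted p = 0.00432). Groups that do not overlap were a condition for naming these genes. Wipi1, which acts in the formation of autophagosomes, fell 1.99-fold from 15.8 ± 0.558 to 7.91 ± 0.579, and Bnip3, a receptor for the removal of mitochondria by autophagy, fell 1.71-fold from 88.3 ± 8.72 to 51.5 ± 9.04. Pid1, an adaptor linked to insulin signalling, fell 2.25-fold to 9.13 ± 0.65, and Cav2, a caveolin, fell 2.15-fold to 2.41 ± 0.742. Plin4, a coat protein of lipid droplets, fell below 1 FPKM, from 2.01, 2.01 and 2.09 to 0.725, 0.722 and 0.768 (log2 change -0.81, adjusted p = 0.000711). In the other direction Gprc5a, an orphan receptor induced by retinoic acid, rose from 0.864 ± 0.200 to 3.27 ± 0.619 (adjusted p = 0.000507).

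**Figure D2:**
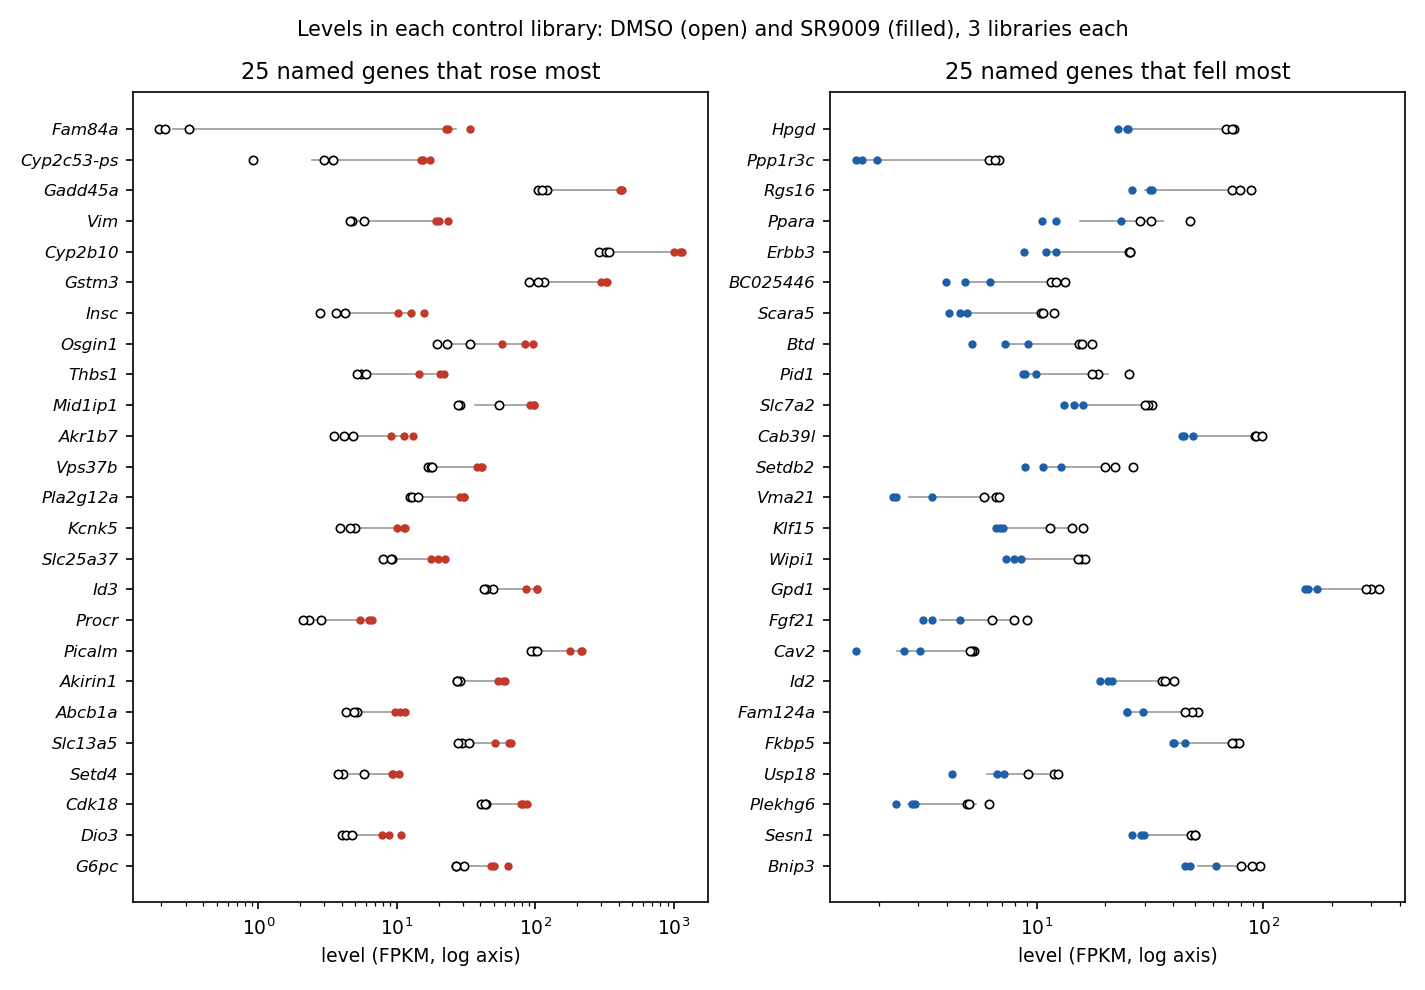
Levels in each control library (FPKM, log axis) of the 25 named genes that rose most and the 25 that fell most, open circles DMSO and filled circles SR9009, 3 libraries each, with lines joining the group means. In every row all filled circles lie on one side of all open circles, as the rule for choosing these genes required; Mid1ip1 shows 1 DMSO library above the other two, and Cyp2c53-ps shows the widest spread within a group.

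The same 50 genes were traced through 22 alternative analyses. The call was kept under every alternative for 47 of them, and the exceptions were Mid1ip1 (above), Ppara and Usp18. Ppara, the receptor that activates fatty acid oxidation, fell from 31.8, 28.7 and 47.5 to 10.5, 23.6 and 12.2, and its adjusted p was 0.0704 without control DMSO library 3, 0.066 without control SR9009 library 1 and 0.0666 without control SR9009 library 3. Usp18, a protease of the interferon response, lost its call without control DMSO library 1 (0.0713), control DMSO library 3 (0.0767) or control SR9009 library 1 (0.053).

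Among abundant transcripts, the largest gains in FPKM included an enzyme that crosslinks proteins and 1 of oxidative drug metabolism. Tgm2, the tissue transglutaminase, stood at 955, 920.2 and 1004 in DMSO and at 1594, 1481 and 1311 with SR9009 (log2 change 0.60, adjusted p = 0.000289). Slc25a47, a mitochondrial carrier of the liver, rose from 703 ± 56.0 to 1018 ± 30.2 (log2 change 0.54, adjusted p = 0.000243). Sqstm1, a receptor that links ubiquitinated cargo to autophagy, rose from 1137 ± 19.0 to 1469 ± 82.8 (log2 change 0.37, adjusted p = 0.00225). Cps1, which commits ammonia to the urea cycle, fell from 737, 691 and 743 to 535, 559.6 and 409 (log2 change -0.54, adjusted p = 0.0116), with an adjusted p of 0.0511 in the 6 control libraries alone. Alb (albumin), the most abundant transcript named, took 3.59% to 3.72% of the summed FPKM in DMSO and 3.17% to 3.28% in SR9009. Its log2 change was -0.15 (adjusted p = 0.0372), and the call was lost in 16 of 22 alternatives, among them the omission of any control DMSO library or of control SR9009 library 1 or 2, where the adjusted p ranged from 0.0896 to 0.108.

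The nuclear receptors CAR and PXR sense foreign compounds in the liver and raise the cytochrome P450 enzymes, conjugating enzymes and transporters that clear them. Of 20 tested genes on the list of these receptors and their oxidative enzymes, 8 rose and 1 fell (45% called, against 8.24% of all genes). Their median log2 change was 0.17 against -0.02 over all genes. Levels of the receptors themselves differed. Nr1i2 (PXR, chromosome 16, 38248409 to 38294910) rose from 19.7, 22.7 and 20.8 to 27.9, 32.1 and 30.5 (log2 change 0.50, adjusted p = 0.00602). Nr1i3 (CAR) stood at 9.83 ± 1.59 and 9.64 ± 0.807 (adjusted p = 0.954), and Rxra, the partner of both, fell from 41.2, 45.6 and 43.9 to 32.1, 32.5 and 26.7 (log2 change -0.51, adjusted p = 0.00229).

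Cyp2b10, the P450 most used as a readout of CAR, was the list's largest change, with 286, 323 and 343 in DMSO and 1107, 1142 and 1004 in SR9009. Alas1, the rate-limiting enzyme of heme synthesis, rose from 147, 201 and 147 to 330.1, 259.7 and 332 (log2 change 0.90, adjusted p = 0.0057). Cyp2c29 rose from 912, 1074 and 1056 to 1500.4, 1549 and 1457 (log2 change 0.57, adjusted p = 0.000289), although its model shares 34035 bp with that of the pseudogene Cyp2c53-ps, so their reads could be split. Cyp3a11, a P450 raised through PXR, did not pass, with 1239 ± 42.2 in DMSO and 1419 ± 52.3 in SR9009 (adjusted p = 0.0616). The libraries of Cyp2b10, Alas1 and Cyp2c29 did not overlap between the groups, as was so for 921 of the 924 called genes. With the 6 control libraries alone 5 genes of the list rose.

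Of 29 conjugating enzymes 5 rose and 3 fell (27.6% called, against 8.24% of all genes). Their median was -0.02, or 0.01 to 0.02 without control DMSO library 3 or control SR9009 library 1 or 2. The count of those that fell was 0 without control DMSO library 1 or 3. It was 1 without control DMSO library 2 or control SR9009 library 1. Gstm2, a glutathione transferase, rose from 33.3 ± 1.31 to 45.6 ± 2.67 (log2 change 0.44, adjusted p = 0.00208). Its abundant relative Gstm1 rose from 1868 ± 53.4 to 2348 ± 156 (log2 change 0.33, adjusted p = 0.00434; 0.0525 in the 6 control libraries alone). Members of this family are near copies, and reads could be split among them. Of 17 transporters of drugs and organic anions 2 rose and 1 fell, the organic anion importer Slco2b1 (17.65% called, against 8.24% of all genes). Their median was -0.01, or 0.02 and 0.07 without control SR9009 library 2 or 3, and none fell without control DMSO library 3. Abcc2, which exports conjugates into bile, stood at 81.8, 77.2 and 87.2 in DMSO and at 151, 152 and 104 with SR9009 (log2 change 0.70, adjusted p = 0.0061), with SR9009 library 3 the lowest of its group and above every DMSO library.

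Many genes of protein folding in the endoplasmic reticulum (ER) fell, and none rose. This list holds the sensors of the unfolded protein response and the chaperones and degradation factors that it raises. Of 26 genes tested, 14 fell (53.8% called, against 8.24% of all genes) and 12 did not pass. The log2 change was negative in 24, with a median of -0.36 against -0.02 over all genes. The number that fell was 9 with the 6 control libraries alone, and the median stayed between -0.39 and -0.33 in all 22 alternatives. Derl3, a component of ER-associated degradation, stood at 4.41, 3.35 and 2.97 in DMSO and at 1.15, 1.31 and 1.59 with SR9009 (log2 change -0.95, adjusted p = 0.00144). Herpud1, which organises the same degradation machinery, fell from 63.7, 62.7 and 58.6 to 39.0, 39.8 and 29.1 (log2 change -0.77, adjusted p = 0.00266). Sdf2l1, a cofactor of chaperones, fell from 24.4, 29.5 and 21.7 to 13.4, 13.2 and 16.6 (log2 change -0.76, adjusted p = 0.00107). In these genes the highest SR9009 library lay below the lowest DMSO library, and the groups did not overlap in 921 of all 924 called genes.

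Hyou1, a large chaperone of the ER lumen, fell 1.48-fold from 43.4 ± 1.19 to 29.3 ± 3.40, and Pdia6, a disulfide isomerase, fell from 119.7, 115 and 111 to 76.8, 83.7 and 90.1 (log2 change -0.46, adjusted p = 0.000665). Dnajb11, a co-chaperone, and Edem1, which hands misfolded glycoproteins to degradation, fell 1.33-fold and 1.34-fold. Hspa5 (BiP), the main chaperone of the ER lumen, did not pass the threshold. Its libraries stood at 619, 636 and 606 in DMSO and at 365, 511 and 543 with SR9009 (log2 change -0.41, adjusted p = 0.0514), so the groups did not overlap but SR9009 library 1 lay well below the other two. None of the response's sensors and their transcription factor passed. Xbp1 stood at 103 ± 7.59 and 85.8 ± 10.3 (adjusted p = 0.116), Atf6 at 14.7 ± 0.698 and 12.7 ± 1.97 (0.265), Ern1 at 57.0 ± 2.53 and 64.0 ± 12.8 (0.554) and Eif2ak3 at 6.09 ± 0.361 and 4.48 ± 0.502 (0.0593).

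The ER stress response element is a promoter sequence bound by ATF6 with NF-Y. Its letters, CCAAT and CCACG separated by any 9 bases, were searched on both strands of RefSeq promoter windows of the build GRCm38.p6, from 250 bases before to 50 after each gene's start. A match was found in 14 of the 8260 tested genes that have a window (0.169%) and in 9 of the 21 genes of the ER list that have one (42.9%). Of the 374 genes that fell and have a window 5 held it (1.34%), and of the 297 that rose none did. All 5 belong to the ER list: Derl3, Hsp90b1, Pdia6, Calr and Creld2. Within that list the element was as common among the genes that fell (5 of 12 with a window, 41.7%) as in the list as a whole, and its other holders, Hspa5, Syvn1, Canx and Dnajc3, did not pass. A match is a description of the letters, not a measured binding site. The stretches below show the element in 5 genes that fell and in Hspa5. Its fixed letters are the same in each because the search required them. Capitals mark the element, or its reverse complement where it starts with CGTGG, with its flanks in lower case, written 5′ to 3′ on the strand of the gene.
Derl3 (chr10:75893227-75893275, plus strand): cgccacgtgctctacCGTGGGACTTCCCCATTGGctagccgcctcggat
Hsp90b1 (chr10:86705518-86705566, minus strand): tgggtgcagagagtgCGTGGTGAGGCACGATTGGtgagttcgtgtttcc
Pdia6 (chr12:17266476-17266524, plus strand): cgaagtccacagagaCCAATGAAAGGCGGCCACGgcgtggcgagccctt
Calr (chr8:84847060-84847108, minus strand): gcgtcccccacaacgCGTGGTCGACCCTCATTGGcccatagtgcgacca
Creld2 (chr15:88819505-88819553, plus strand): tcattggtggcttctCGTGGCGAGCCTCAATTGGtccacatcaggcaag
Hspa5 (chr2:34772010-34772058, plus strand): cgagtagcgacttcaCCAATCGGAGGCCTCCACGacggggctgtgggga
Of the 14 genes with the element, 12 had a negative log2 change, as had 6041 of the 11213 genes tested, and 9 of the 14 are the ER genes already described. Calr, a lectin chaperone that binds calcium, fell from 232 ± 8.17 to 193 ± 7.78 (adjusted p = 0.0108; 0.0722 in the 6 control libraries alone). Creld2, an ER-resident folding factor, fell from 66.0 ± 6.33 to 47.8 ± 5.53 (adjusted p = 0.0163). The call of Creld2 was lost without control DMSO library 1 or 2 (0.0722 and 0.0618) or control SR9009 library 1 or 2 (0.0564 and 0.0581). The 5 genes that hold the element outside the ER list, Hnrnpa3, Acacb, Alg12, Pan2 and Acnat2, did not pass the threshold, with log2 changes of -0.29, -0.25, -0.14, 0.02 and 0.03.

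MYC is a transcription factor that raises the genes needed to build ribosomes, and proteins of the MXD family compete with it for its partner MAX. Of 43 genes on the list of MYC and ribosome biogenesis, 20 rose, 1 fell and 40 had a positive log2 change, with a median of 0.24 against -0.02 over all genes. The number that rose was 10 without control DMSO library 2, 13 without control DMSO library 3, 13 without the 2 shallowest libraries and 8 with the 6 control libraries alone, while the median stayed between 0.24 and 0.26 in all 22 alternatives. Myc itself rose from 94.2, 85.9 and 91.9 to 149, 128 and 139. The single gene that fell was Mxd4, an antagonist of MYC, with 20.2, 19.0 and 19.6 in DMSO and 13.1, 13 and 12.8 with SR9009 (log2 change -0.56, SE 0.06, adjusted p = 0.00015). A second antagonist, Mxi1, stood at 5.88 ± 0.826 and 4.38 ± 0.376 and did not pass (adjusted p = 0.0575), nor did Max (adjusted p = 0.375).

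Rrs1, a factor of large subunit assembly, rose from 42.7, 41.5 and 43.8 to 59.6, 56.3 and 55.3 (log2 change 0.41, adjusted p = 0.00103). Dkc1, the enzyme that makes pseudouridine in ribosomal RNA, rose from 20.5, 18.8 and 21.0 to 26.1, 27.6 and 27.4 (log2 change 0.41, adjusted p = 0.00203). Nop2, a ribosomal RNA methyltransferase, rose 1.25-fold from 45.8 ± 1.56 to 57.2 ± 0.302. These rises were small beside the largest changes. Their groups did not overlap, as was so for 921 of the 924 called genes, so the separation adds no support. The large subunit of RNA polymerase I, Polr1a (9.66 ± 0.339 and 11.7 ± 1.25, adjusted p = 0.142), its activator Ubtf (16.3 ± 0.644 and 16.2 ± 0.63) and the RNA methyltransferase Fbl (adjusted p = 0.0801) did not pass. None of 79 cytosolic ribosomal protein genes passed in limma, and 8 had an unadjusted p under 0.05. Their median was 0.09, with 72 positive, but -0.02 without control SR9009 library 3. The E-box letters CACGTG, which MYC can bind, stood in the promoter windows of 10 of the list's 37 genes that have one (27.0%), of 2 of the 16 that rose (12.5%) and of 12.6% of all tested genes.

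**Figure D3:**
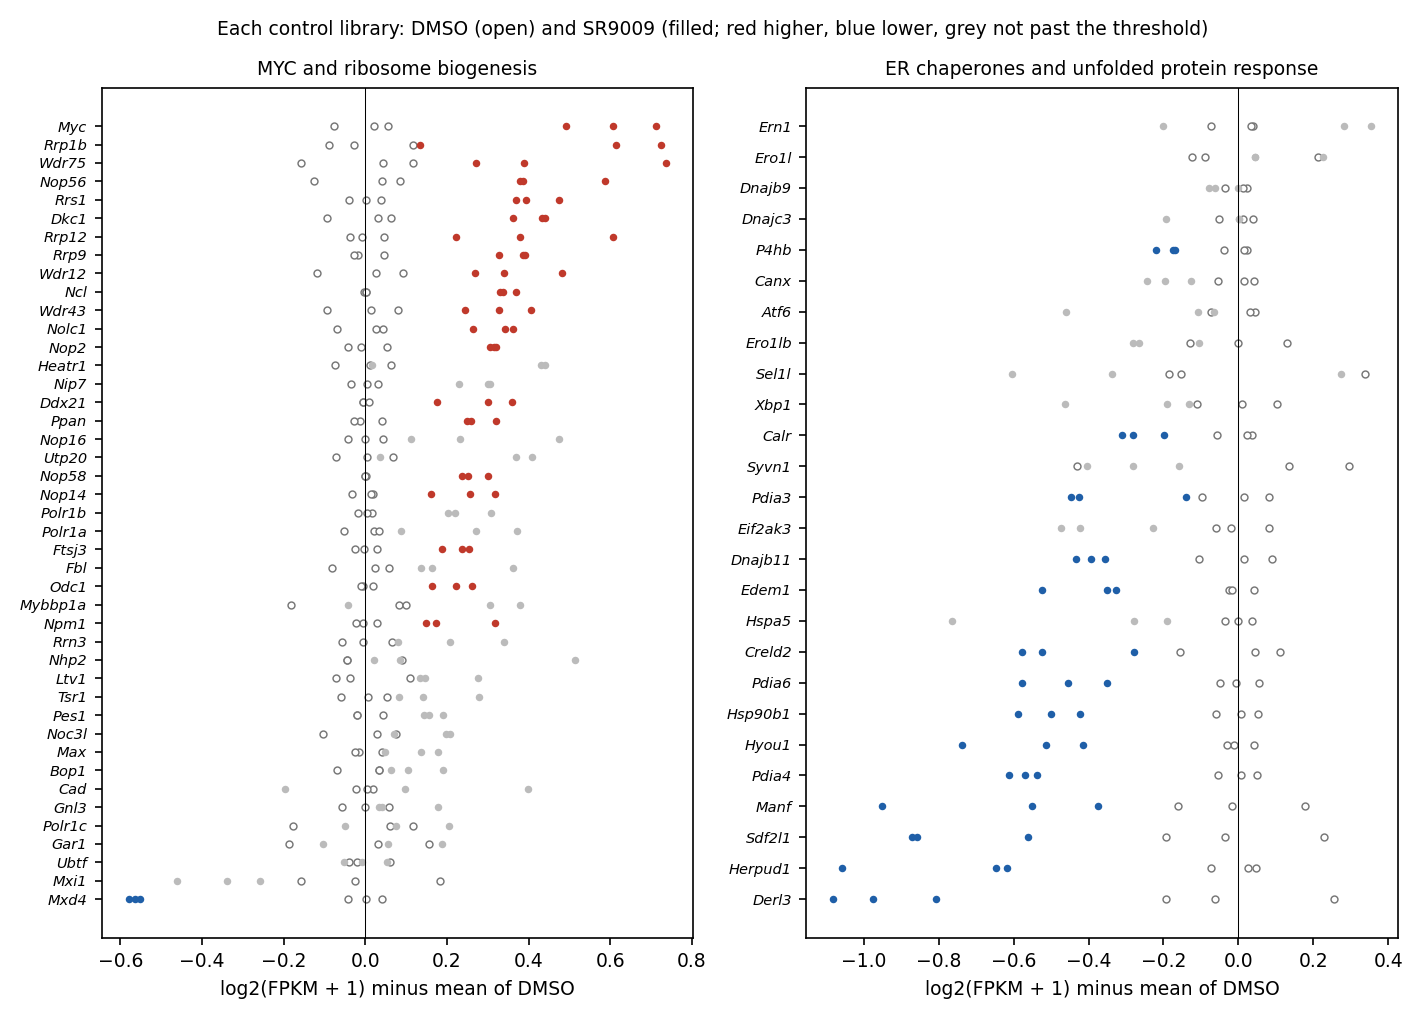
Each control library's log2(FPKM + 1) minus the mean of the 3 DMSO libraries (horizontal axis) for every tested gene of the MYC and ribosome biogenesis list and of the ER list, open circles DMSO and filled circles SR9009 (red rose, blue fell, grey not past the threshold). Filled circles lie mostly right of 0 in the first list, with Mxd4 as the blue exception, and mostly left of 0 in the second.

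Genes of other stress responses moved in part. Of 26 genes of the ATF4 response, which is set off when translation is slowed by stress kinases, 7 rose and 1 fell (median 0.22). That is 30.8% called, against 8.24% of all genes. The number that rose was 3 without control DMSO library 1, 4 without control SR9009 library 1 and 3 with the 6 control libraries alone. Atf4 itself did not pass (225 ± 8.72 and 238 ± 6.71, adjusted p = 0.371). Ddit3 (CHOP), a factor of prolonged stress, rose from 18.7, 21.3 and 19.3 to 32.2, 26.5 and 34.9 (log2 change 0.63, adjusted p = 0.00188). Gdf15, a secreted stress hormone, rose from 244, 256 and 248 to 357, 321 and 364 (log2 change 0.48, adjusted p = 0.000745). The gene of the list that fell was Fgf21 (above). None of the 20 cytosolic tRNA synthetases passed in limma (3 had an unadjusted p under 0.05, median 0.09).

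NRF2 raises antioxidant enzymes when its inhibitor KEAP1 is inactivated. Of 23 genes on its list 5 rose and none fell (median 0.06, 21.7% called against 8.24% of all genes), and 3 rose without control DMSO library 3. Txnrd1, a thioredoxin reductase, rose from 258 ± 10.4 to 324 ± 17.7 (log2 change 0.33, adjusted p = 0.00786; 0.0629 after quantile normalization). Nfe2l2 (NRF2), Keap1 and the classical targets Nqo1, Gclc and Gclm did not pass (adjusted p = 0.683, 0.39, 0.446, 0.088 and 0.699). Srxn1, which repairs oxidised peroxiredoxins, stood at 1508, 1539.8 and 1456 in DMSO, and at 409, 2105 and 1951 with SR9009. SR9009 library 1 thus lay far below the other two, and the gene did not pass (adjusted p = 0.758). Whether that low value is a faulty estimate was not tested, and the p-value rests on it. Of 16 heat shock protein genes 2 rose and none fell (median 0.09, 12.5% called against 8.24% of all genes). Hspb8, a small heat shock protein, stood at 238, 239 and 242 in DMSO and at 384, 366 and 367 with SR9009 (log2 change 0.63, SE 0.05, adjusted p = 8.41e-06), and Hspa4, a cochaperone of the cytosol, rose 1.25-fold.

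On the list of p53 targets 3 of 19 rose and 5 fell, with a median of -0.16 (42.1% called, against 8.24% of all genes). Phlda3, which restrains AKT, fell from 2.55, 2.50 and 2.38 to 1.62, 0.998 and 0.970 (log2 change -0.67, adjusted p = 0.00564). Ccng1, a cyclin, fell 1.38-fold from 14.8 ± 0.371 to 10.7 ± 0.694, and Plk2, a kinase of the stress response, rose 1.6-fold from 6.18 ± 0.374 to 9.91 ± 0.889. Trp53 (adjusted p = 0.747) and Mdm2 (0.767) did not pass. Many genes of the cell cycle were weakly expressed: 15 of the 37 on the list, Ccnd1, Ccnb1 and Cdk1 among them, did not reach the level needed for a test. Of the 22 tested, 2 rose and 5 fell (31.8% called, against 8.24% of all genes). The number that fell was 3 without any 1 of the 3 control DMSO libraries or without control SR9009 library 1 or 2. Ccnd3, a cyclin of early G1, fell from 7.63, 7.36 and 6.84 to 4.88, 4.71 and 4.0 (log2 change -0.58, adjusted p = 0.00353), and its model overlaps that of Bysl by 353 bp. Gadd45b, a stress sensor, rose from 34.1 ± 0.414 to 47.7 ± 4.38 (log2 change 0.47, adjusted p = 0.00663).

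The clock and the genes known to be repressed by REV-ERB are where an agonist of the receptors would act. Of 22 clock genes 1 rose and 4 fell (median -0.07, 22.7% called against 8.24% of all genes). The gene that rose lost its call without control DMSO library 2 or 3 or control SR9009 library 1 or 2, and the number that fell was 1 or 2 without any 1 of the control DMSO libraries or without control SR9009 library 1 or 3, KO-labelled DMSO library 2 or 3 or KO-labelled SR9009 library 2 or 3. The median turned to 0.02 without control SR9009 library 3. Arntl (BMAL1), the best known gene under REV-ERB repression, was near silence in both groups, at 0.178, 0.159 and 0.306 in DMSO and 0.391, 0.146 and 0.117 with SR9009 (adjusted p = 0.998). Npas2 stood at 0.0867 ± 0.048 and 0.102 ± 0.133 (adjusted p = 0.97). At such levels a further fall could hardly be measured. In DMSO, the KO-labelled libraries held 6.49 ± 0.307 FPKM of Arntl and 6.68 ± 0.86 of Npas2. Clock (2.53 ± 0.305 and 2.01 ± 0.299), Cry1 (9.0 ± 0.41 and 9.57 ± 1.09) and Nfil3 (24.8 ± 1.54 and 27.9 ± 1.37) are also repressed by REV-ERB and stood at higher levels. Clock lies below 5 FPKM, where levels were measured least precisely. None of these genes passed (limma adjusted p = 0.319, 0.652 and 0.126). Nor did Per1, Per2 and Dbp (0.574, 0.682 and 0.544).

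Of 16 genes on the list repressed by REV-ERB 3 rose and none fell (18.8% called, against 8.24% of all genes). Their median was 0.05 (0.00 without control DMSO library 1). Arntl and Npas2 are among the 16 and reached the filter only through KO-labelled libraries. In control cells they stood too low to be called lower, so the absence of falls says nothing about them. The number that rose was 2 without control DMSO library 3 or any single control SR9009 library. A further listed gene, Cyp7a1, lay under the filter and was not tested (means of 0.406 FPKM in DMSO and 0.165 with SR9009). Insig2, which retains SREBP in the ER, rose from 74.2 ± 6.29 to 98.8 ± 8.03 (log2 change 0.41, adjusted p = 0.00968; 0.0519 in the 6 control libraries alone). G6pc (chromosome 11, 101228875 to 101239217), the enzyme that releases free glucose from its phosphate, rose from 26.8, 30.7 and 27.0 to 50.5, 63.6 and 47.9 (log2 change 0.91, adjusted p = 0.000123).

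In gluconeogenesis 1 of 12 genes rose (G6pc) and 3 fell, 33.3% called against 8.24% of all genes. Slc37a4, which carries glucose phosphate to G6pc inside the ER, moved opposite to it, from 80.6, 80.9 and 76.9 to 57.9, 45.3 and 51.8 (log2 change -0.62, adjusted p = 0.000745). Gpt2, an alanine transaminase, fell from 156, 152 and 168 to 111, 116 and 97.9 (log2 change -0.55, adjusted p = 0.000711). Pck1, the rate-limiting enzyme of the pathway, did not pass (18.3 ± 0.547 and 17.3 ± 2.30, adjusted p = 0.733). In glycolysis 1 of 17 rose and 3 fell (median -0.17, 14 negative, 23.5% called against 8.24% of all genes). The median was -0.03 without control DMSO library 1, -0.12 without control SR9009 library 1 and -0.10 without control SR9009 library 3, and none rose without control DMSO library 2 or 3 or control SR9009 library 1. In the citrate cycle and pyruvate dehydrogenase list 3 of 26 rose and 2 fell (19.2% called, against 8.24% of all genes). Their median was -0.01, or 0.01 without control SR9009 library 3, and 1 rose without control DMSO library 1 or 3. Of the genes that fell, 1 was left without any single control library, KO-labelled DMSO library 3 or KO-labelled SR9009 library 2. Pdk2, a kinase that switches pyruvate dehydrogenase off, fell from 15.4, 14.1 and 15.2 to 8.40, 10.6 and 8.11 (log2 change -0.67, adjusted p = 0.00524).

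Of 25 cholesterol synthesis genes 4 rose and 1 fell (20% called, against 8.24% of all genes). Their median was -0.01 (0.03 without control SR9009 library 3, 0.01 without control DMSO library 1). Without control DMSO library 2 the number that rose was 2, and none fell without control DMSO library 1 or 2. Srebf2, the transcription factor of the pathway, and the enzyme Sqle did not pass (adjusted p = 0.906 and 0.871). Among 21 genes of fatty acid and triglyceride synthesis 1 rose and 1 fell (median -0.11, 17 negative, 9.52% called against 8.24% of all genes). Acly, which makes cytosolic acetyl-CoA from citrate, fell from 255, 242 and 252 to 177, 176 and 163 (log2 change -0.54, adjusted p = 0.000216). Thrsp, a lipogenic factor, rose from 76.1, 112 and 97.9 to 139, 141 and 159.6 (log2 change 0.63, adjusted p = 0.00602; 0.0511 in the 6 control libraries alone). Without control SR9009 library 1 the number that fell was 3, and without control SR9009 library 3 the number that rose was 2. Srebf1, Fasn and Scd1 did not pass (adjusted p = 0.0786, 0.151 and 0.46). In fatty acid oxidation 1 of 26 rose and 3 fell (15.4% called, against 8.24% of all genes). The number that fell was 1 without control DMSO library 3 or control SR9009 library 1, and none rose without control DMSO library 1. Angptl4, a PPARα target that inhibits lipoprotein lipase, was tightly measured and fell from 107 ± 1.05 to 87.5 ± 1.30 (log2 change -0.29, adjusted p = 0.00655).

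Of 27 genes of the urea cycle and amino acid catabolism, 6 fell and none rose (22.2% called, against 8.24% of all genes). The log2 change was negative in 23 (median -0.09). Tdo2, which opens tryptophan breakdown, stood at 187, 166 and 175 in DMSO and at 109.6, 116 and 112 with SR9009 (log2 change -0.64, adjusted p = 0.000234). Tat, the tyrosine transaminase, fell from 376, 343 and 319 to 254, 249 and 251 (log2 change -0.46, adjusted p = 0.00887). For both genes every SR9009 library lay below every DMSO library, a separation shared by nearly all called genes (921 of 924). On the list of hepatocyte identity 1 of 25 rose and 6 fell (median -0.12, 22 negative, 28% called against 8.24% of all genes). The number that fell was 2, 1 and 3 without control DMSO library 1, 2 or 3 and 3 without control SR9009 library 1 or 2. Cyp1a2, an oxidase of caffeine and estrogens, was the gene that rose, from 293 ± 12.2 to 368 ± 23.2 (adjusted p = 0.0033; 0.0519 in the 6 control libraries alone).

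Of 20 genes of insulin, AKT and FOXO signalling 3 fell and none rose, and 18 were negative (median -0.22). Klhl24, a target of FOXO, fell from 3.70, 3.72 and 3.74 to 2.38, 2.47 and 2.26 (log2 change -0.49, adjusted p = 0.00564), and Ddit4, an inhibitor of mTOR, fell 1.36-fold from 19.8 ± 0.595 to 14.5 ± 0.309. Insr, Irs2, Foxo1 and Igfbp1 did not pass (adjusted p = 0.683, 0.221, 0.414 and 0.0791). Of 14 immediate early genes 4 rose and none fell (median 0.11), and 2 rose with the 6 control libraries alone. Fosl1, a subunit of AP-1, rose from 37.1, 29.2 and 34.3 to 58.6, 55.3 and 49.4 (log2 change 0.69, adjusted p = 0.00404), and its model overlaps that of Ccdc85b by 2783 bp. Ier2 rose 1.34-fold from 75.2 ± 4.07 to 101 ± 6.40 (adjusted p = 0.00564), and Fos did not pass (adjusted p = 0.929). Among 24 acute phase genes 2 fell, 1 of them Il6ra, the receptor of interleukin 6, from 18.7, 17.7 and 21.2 to 12.1, 14.2 and 9.77 (log2 change -0.64, adjusted p = 0.00522). The other, Socs3, which restrains cytokine signals, changed by -0.44, and 1 gene fell without KO-labelled DMSO library 3, any single control DMSO library or control SR9009 library 2 or 3. Among 30 autophagy and lysosome genes 1 rose (Sqstm1) and 2 fell, Wipi1 and Ulk1, the kinase that starts autophagy (19.1 ± 0.251 to 13.1 ± 1.65, adjusted p = 0.0053). In limma no gene passed among 31 proteasome subunits, 81 nuclear genes of the respiratory chain and 13 mitochondrially encoded proteins, with medians of 0.04, 0.02 and 0.09 and with 0, 1 and 1 genes at an unadjusted p under 0.05. Without control SR9009 library 3 the median was -0.01 with 1 lower call for the proteasome and -0.07 for the respiratory chain, and the mitochondrial median ran from 0.03 without control DMSO library 1 to 0.17 without control SR9009 library 1. Against 8.24% of all genes, the share called was 53.8% in the ER list, 48.8% in the MYC list, 45% in the CAR and PXR list and 42.1% among p53 targets, and it was 8.33% in the acute phase, 9.52% in fatty acid synthesis and 10% in the autophagy list, which is near that of all genes. The share was 12.5% among heat shock proteins, 15% in the insulin list and 15.4% in fatty acid oxidation. Over all genes the share called was 4.80% below 5 FPKM and 8.04% at 5 to 20 FPKM. It was 12.6% at 20 to 100 FPKM and 13.7% at 100 FPKM or more. The lists were not matched to all genes by level. In the other pathway lists above that held a called gene it ran from 17.65% (transporters) to 33.3% (gluconeogenesis).

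**Figure D4:**
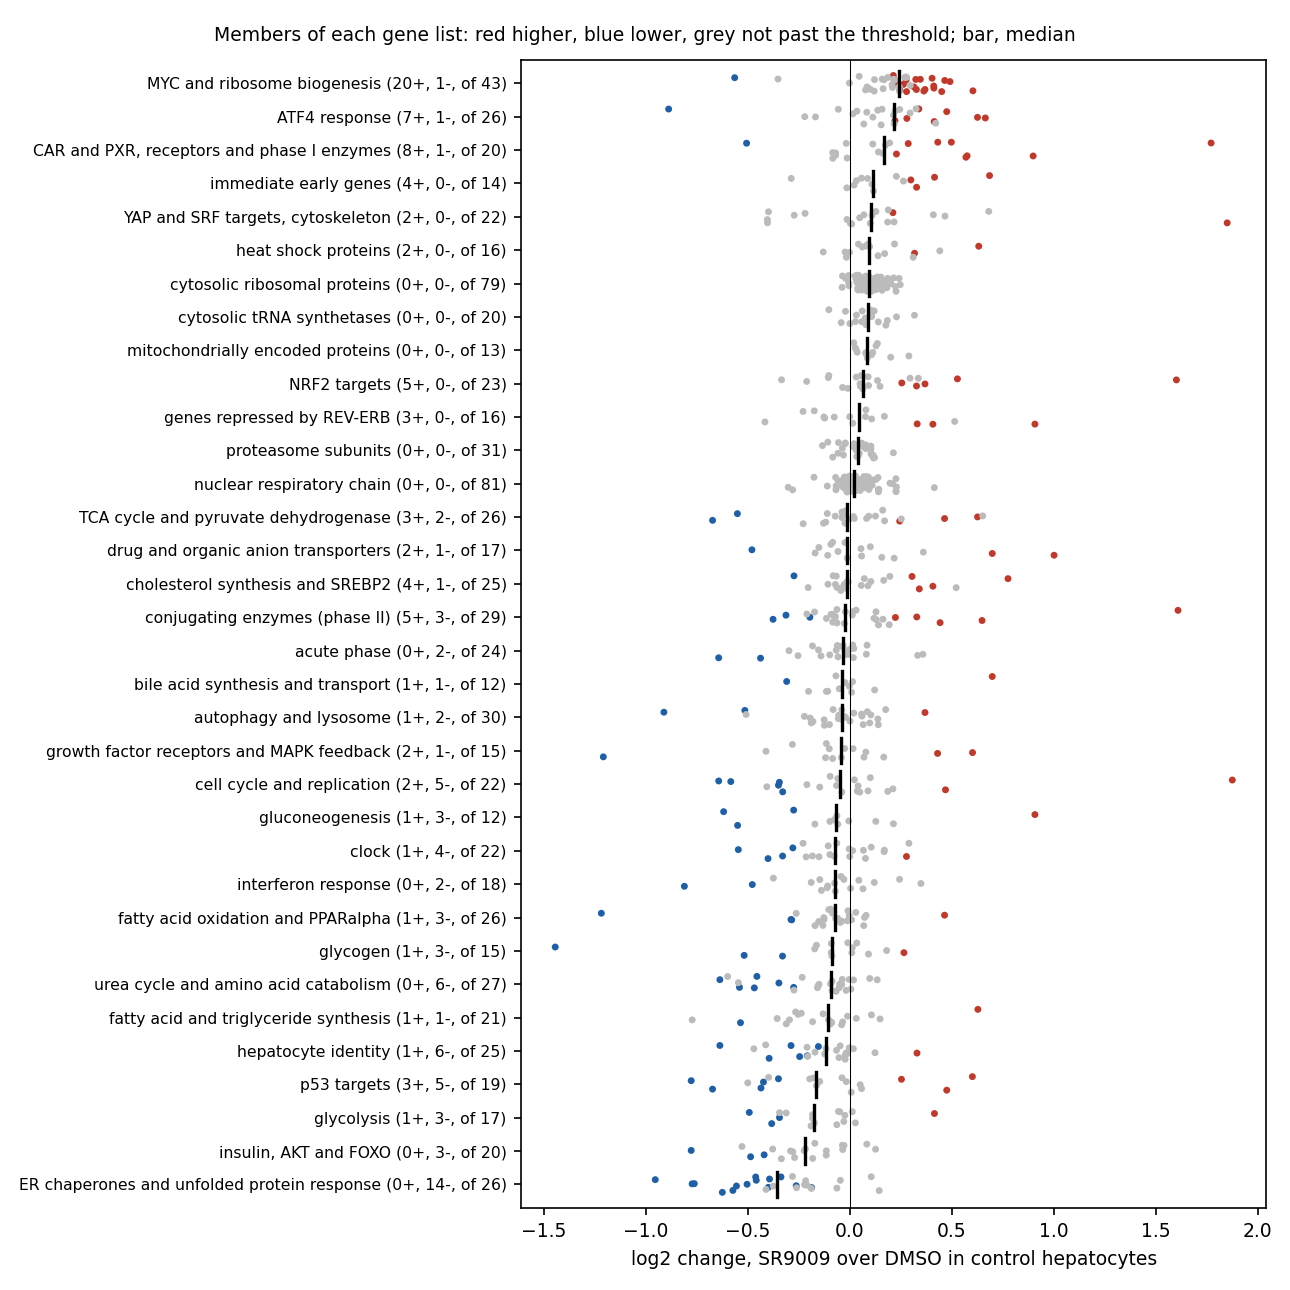
Log2 change with SR9009 in control hepatocytes (horizontal axis) of every tested member of each gene list (1 row a list, with the numbers that rose and fell), red rose, blue fell, grey not past the threshold, vertical bar the list's median. The MYC and ribosome biogenesis list has the highest median (0.24) and the ER list the lowest (-0.36).

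To see whether the response depended on the receptors, the same comparison was made in KO-labelled cells and the effects were tested against each other. Over whole gene models, Nr1d1 stood at 17.7 ± 0.459 FPKM in KO-labelled DMSO and 18.5 ± 0.412 in control DMSO (exact permutation p = 0.1). Nr1d2 stood at 16.2 ± 0.0949 and 15.3 ± 1.87 (exact permutation p = 0.4). These levels do not show a loss of either transcript and do not check the alleles. In KO-labelled cells 1107 genes passed (9.87%), 596 higher (5.32%) and 511 lower (4.56%). Of these, 552 had also passed in the same direction in control cells, and no gene passed in opposite directions. The KO-labelled count was 711 without KO-labelled DMSO library 3, 603 without KO-labelled SR9009 library 1 and 672 without KO-labelled SR9009 library 2. The shared genes are 59.7% of the control calls and 49.9% of the KO-labelled ones. The log2 change had the same sign in KO-labelled cells for 882 of the 924 control calls, and the median ratio of the KO-labelled to the control change was 0.82. Genes chosen for passing in control tend to have control changes that come out too large. The ratio therefore does not show a weaker response in KO-labelled cells, and it was not taken over the KO-labelled calls. Of the 50 genes with the largest changes named above, 45 (90%) passed in KO-labelled cells too. Fam84a went from 0.407 ± 0.144 to 29.6 ± 2.43 there (log2 change 4.44), B430219N15Rik changed by 3.38, Kcnk5 by 1.10, Cab39l by -1.15 and Herpud1 by -1.09.

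The difference between the effects passed the threshold for 3 genes (0.0268%), while by limma 787 had an unadjusted p under 0.05. The count was 0 without KO-labelled DMSO library 1 or 2, 1 without KO-labelled DMSO library 3, KO-labelled SR9009 library 1, control DMSO library 3 or control SR9009 library 2, and 5 without control DMSO library 1. The 95% interval of the difference had a median half-width of 0.28 over the 924 control calls, and for 96% of them it lay within 1 unit of 0. The genes that did not pass are not shown to respond alike. Among these, Mid1ip1 changed by -0.59 in KO-labelled cells, with a difference of 2.02 (adjusted p = 0.467), and Fgf21 changed by -0.23, with a difference of -0.66 (adjusted p = 0.599). Nr1i2 changed by 0.18 and Ddit3 by 0.17, neither past the threshold there (adjusted p = 0.272 and 0.323).

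Hmox2 (chromosome 16, 4726361 to 4766742), the constitutive heme oxygenase, fell in control cells from 40.3, 35.0 and 35.1 to 20.7, 21.5 and 21.2 (log2 change -0.77, adjusted p = 3.02e-05). In KO-labelled cells it stood at 34.1 ± 1.10 and 36.3 ± 1.65 (log2 change 0.09). The difference was -0.86 (95% interval -1.06 to -0.66, adjusted p = 0.00854), and it passed in 17 of 21 alternatives. It was lost without KO-labelled DMSO library 1 or 2, without the 2 shallowest libraries and with a replicate block, where the adjusted p reached at most 0.0938. The model of 5730403B10Rik, on the opposite strand, overlaps it by 16395 bp and did not pass (log2 change 0.01).

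Vma21 (chromosome X, 69061263 to 69085096), an assembly factor of the proton pump of lysosomes, fell in control cells from 6.6, 5.87 and 6.82 to 2.31, 2.39 and 3.44, and stood at 7.20 ± 0.512 and 8.04 ± 0.408 in KO-labelled cells. The difference was -1.15 (95% interval -1.50 to -0.80, adjusted p = 0.0414) and passed in 3 of 21 alternatives. Without any single library it ranged from -1.29 to -1.08, with an adjusted p of 0.0618 to 0.195, except without control SR9009 library 3 (0.00477). Gstm3, a glutathione transferase, rose in both genotypes, from 104 ± 13 to 317 ± 15.8 in control cells and from 751 ± 14.9 to 1286 ± 19.0 in KO-labelled cells. The difference was 0.83 (95% interval 0.60 to 1.07, adjusted p = 0.0307) and passed in 7 of 21 alternatives. It was lost without any single KO-labelled library, control DMSO library 3 or control SR9009 library 1 or 2, with an adjusted p of 0.0747 to 0.164. Its model overlaps that of Gstm6 by 1417 bp on the same strand.

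**Figure D5:**
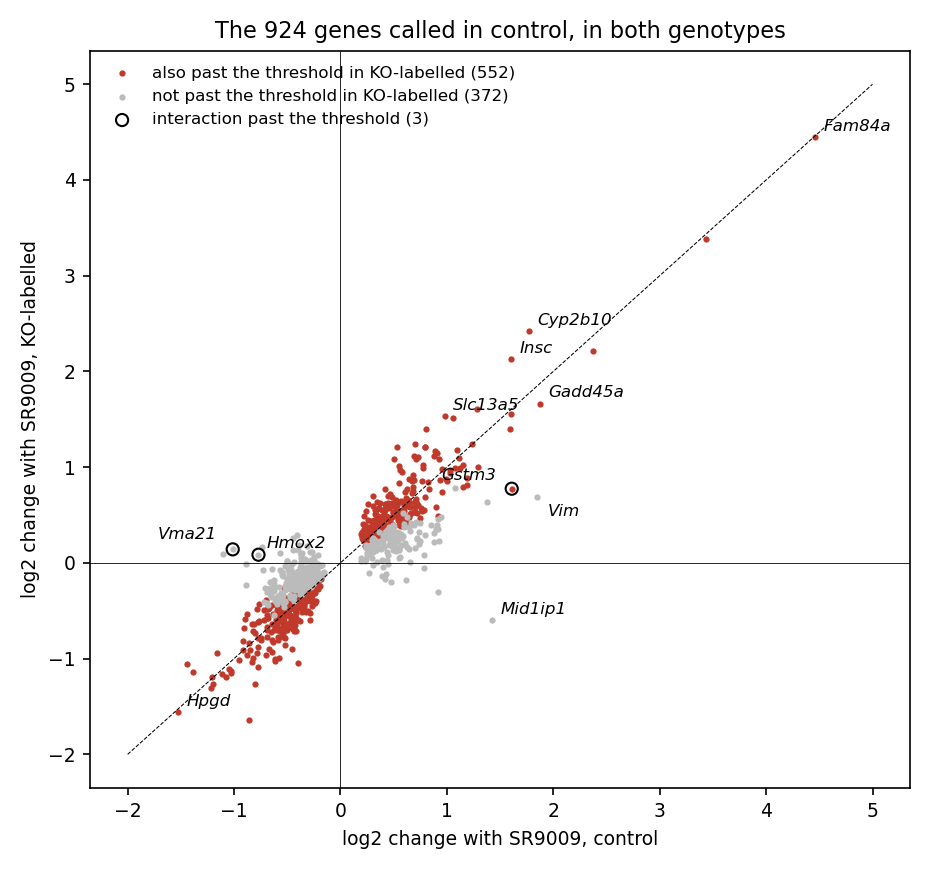
Log2 change with SR9009 in KO-labelled hepatocytes (vertical axis) against that in control hepatocytes (horizontal axis) for the 924 genes called in control, red where also past the threshold in KO-labelled cells (552) and grey where not (372). Rings mark the 3 genes whose effects differed, and the dashed line marks equal change; most points lie near the line, with Vma21, Hmox2 and Mid1ip1 away from it.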

How the data were processed

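RNA was measured by RNA-seq of poly(A) RNA, with a ribosomal RNA depletion step, in 12 libraries of 4 groups of 3, per the labels' protocols. Reads were aligned with HISAT2 and quantified with StringTie on the mouse build mm9, per the submitters' processing notes. For their versions, the annotation and the use of strand, the sources used here say nothing. The authors deposited 1 table of FPKM values, normalized for length and depth within each library, for 37991 gene models. FPKM keeps no read totals, so relative depth was read from the smallest steps of the values, and a value near 0 carries little precision.

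A gene was kept if 3 or more libraries reached 1 FPKM, and log2(FPKM + 1) was fitted with limma 3.58.1 in R 4.3.3 (1 mean per group over all 12 libraries, variance trend, robust). Benjamini-Hochberg adjustment ran over the 11213 genes, with a threshold of 0.05. Nr1d1 and Nr1d2 were also tested by exact permutation of libraries. On simulated data for 11213 genes the control comparison recovered 94% of 100 genes changed by 1 and 72% of 100 genes changed by 0.5 on the log2 scale, with 11 false among 177 calls.

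The 34 pathway lists, the 8 marker lists and the genes named were chosen with earlier results of these data known. Named were Nr1d1 and Nr1d2, the 25 genes per direction that had the largest log2 change (past the threshold, groups not overlapping, at least 5 FPKM in the higher group, unnamed models passed over), up to 10 per direction by FPKM difference, up to 10 per direction going from under 1 to at least 2 FPKM or back, up to 20 genes of the difference between genotypes, and from each list its called members and those whose role opens it. Alternatives were pseudocounts of 0.1 and 0.5, a filter at 5 FPKM or none, quantile and upper quartile scaling, no variance trend, the control libraries alone, a replicate block and the omission of single libraries. Omitting the 2 shallowest libraries together, and each KO-labelled library from the control comparison, was chosen after seeing the data. Promoter letters came from RefSeq windows of another build (GRCm38.p6), matched by symbol, while gene coordinates are those of the deposited table. A few list members are not reported here by name, and the list counts include them.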

Additional observations from a re-analysis of the deposited data

Results flagged for a closer look

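In 3 genes the SR9009 effect differed between the genotypes by the test of the difference itself (limma, Benjamini-Hochberg adjusted p under 0.05). The control effect minus the KO-labelled effect, on the log2 scale, was -1.15 for Vma21, -0.86 for Hmox2 and 0.83 for Gstm3. Vma21 passed in 3, Hmox2 in 17 and Gstm3 in 7 of 21 alternatives, and with a replicate block the count was 0. In Vma21 and Hmox2 all 3 control SR9009 libraries lay below all control DMSO libraries, while the change in KO-labelled cells was 0.14 and 0.09. Gstm3 rose in both genotypes, by 1.61 in control and 0.77 in KO-labelled cells, from DMSO levels of 104 and 751 FPKM. The deposited values do not tell which transcripts of these genes changed.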

How the results depend on the processing

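The control count of 924 was 376 with the 6 control libraries alone (182 higher, 194 lower) and 609 without the 2 shallowest libraries (260 higher). Leaving out 1 library at a time gave 530 to 919 in total, 244 to 480 higher and 269 to 463 lower. Under the other settings it ranged from 634 without a filter to 965 with upper quartile scaling. The KO-labelled count of 1107 ranged from 603 to 859 without 1 KO-labelled library. The count of 3 genes whose effects differed was 1 with quantile normalization, 1 without the 2 shallowest libraries, and 0 to 5 without 1 library. With the replicate number as a block, 793 genes passed in control cells (369 higher, 424 lower), 958 in KO-labelled cells and 0 for the difference. Same-numbered libraries of different groups correlated in their deviations from group means at -0.11 to 0.12. They thus showed no strong shared deviation, but with 3 libraries a group this cannot exclude a shared mouse or plate. The cause of these shifts was not tested, beyond the smaller number of libraries in some of them. Among 200 named genes past the threshold none changed sign, and 109 passed under every one of the 22 alternatives. Low genes were measured least precisely: the median standard error was 0.14 below 5 FPKM and 0.07 at 100 FPKM or more.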

Other observations

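In 5 further lists the share called was 9.09% to 26.7%, against 8.24% of all genes. Of 15 growth factor receptors and MAPK feedback genes 2 rose and 1 fell. Erbb3, a receptor of neuregulins, fell from 25.8, 25.5 and 25.6 to 11, 12.1 and 8.77 FPKM, while Egfr, the main growth factor receptor of hepatocytes, stood at 117, 111 and 119 in DMSO and 106, 102 and 79.6 with SR9009 and did not pass. The genes that rose, the phosphatases Dusp1 and Dusp5 (log2 change 0.60 and 0.43), both lost the call without control DMSO library 1 or control SR9009 library 1. Of 12 bile acid genes Abcc2 rose and Baat, which conjugates bile acids to taurine and glycine, fell from 55.5 ± 3.64 to 44.6 ± 0.964, with an adjusted p (limma, Benjamini-Hochberg) of 0.014 that became 0.0618 and 0.0621 without control DMSO library 2 or 3. Of 18 interferon genes 2 fell, none without control DMSO library 1 or 3 or control SR9009 library 1. Of 22 YAP and SRF targets and cytoskeleton genes 2 rose, or 1 without control DMSO library 2 or 3 or control SR9009 library 1, and none fell, against 3 that fell with a filter at 5 FPKM and 2 with quantile or upper quartile scaling. Of 15 glycogen genes 1 rose and 3 fell. None rose without any single control DMSO library or control SR9009 library 1 or 2, and 1 fell without control DMSO library 1 or control SR9009 library 1. The liver glycogen phosphorylase Pygl stood at 98.7 ± 5.2 and 99.4 ± 2.06 and the synthase Gys2 at 42.6 ± 2.14 and 37.9 ± 1.59.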
